A study of Mus musculus with 6 samples.

Results

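The genes described here are 9 transcripts of the fetal blood stem cell program and its let-7 arm: Lin28b, Igf2bp1, Igf2bp2, Igf2bp3, Hmga2, Arid3a, Sox17, Igdcc3 and Igdcc4. They were taken by name from 38926 genes in the deposited count lists. Igdcc4 was selected on its lower counts in the knockout in an earlier DESeq2 comparison of these same samples, in which 0.254% of 13390 genes were called lower. The other 8 were added by name to ask whether the lower level extends to the fetal Lin28b program. The change of Igdcc4 is therefore given as a description, without a test.

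RNA was sequenced from hematopoietic stem cells (HSCs) sorted by surface markers from the fetal liver of mouse embryos at E14.5. Control embryos had the genotype Vav-Cre; Dpy30F/+ and knockout embryos Vav-Cre; Dpy30F/-, with 3 samples each, 1 of each genotype from each of 3 litters. Dpy30 encodes a shared subunit of the complexes that methylate lysine 4 of histone H3. Vav-Cre is a recombinase transgene driven by the promoter of the blood cell gene Vav, so both genotypes carried Cre and a floxed allele (F), and the control cells were left with 1 intact copy of Dpy30 where Cre had acted. The labels do not say how many embryos went into a sample.

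Lin28b is an RNA-binding protein of fetal blood progenitors that blocks the maturation of let-7 microRNAs. The let-7 microRNAs pair through their seed with sites in the 3′ untranslated region (UTR) of target transcripts and lower their output. Targets include Hmga2, a chromatin protein that favours self-renewal of fetal HSCs, the Igf2bp RNA-binding proteins, and Lin28b itself. Lin28b is known to decline as blood formation passes from fetal to adult type, while let-7 rises.

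The let-7 microRNAs are shown first because a match to their seed is what most of the 9 transcripts have in common. In RefSeq (GRCm38.p6), 10 mature mouse sequences of the let-7 and miR-98 family share the same bases 2 to 8, printed in capitals. A set of 5 shows how the rest of the molecule varies around this seed.
let-7a-5p, chr13:48538239-48538260, minus strand: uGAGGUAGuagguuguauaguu
let-7b-5p, chr15:85707325-85707346, plus strand: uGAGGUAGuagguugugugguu
let-7d-5p, chr13:48536078-48536099, minus strand: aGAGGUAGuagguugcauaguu
let-7g-5p, chr9:106178846-106178867, plus strand: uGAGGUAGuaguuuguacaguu
miR-98-5p, chrX:151913229-151913250, plus strand: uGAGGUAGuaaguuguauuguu

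The complement of that seed in a transcript is CTACCTC. It was searched on the sense strand of the longest annotated 3′ UTR of each gene (GENCODE M21, GRCm38). Only full matches to CTACCTC were counted, so a gene with no match can still hold a partial match to the seed. The match was present in 8 of the 9 genes, against 8.97% of 21096 coding genes with a 3′ UTR. All 8 also had at least 1 match followed by A (CTACCTCA), which 3.03% of the 21096 genes had. The match was present 4 times each in Lin28b, Hmga2 and Igf2bp1, 2 times each in Arid3a and Igdcc3, and once each in Igf2bp2, Igf2bp3 and Igdcc4. Sox17, whose 3′ UTR is 785 bases long, held none. Only 0.152% of coding genes held 3 or more. Most of the 9 were chosen as known let-7 targets, so these shares are a description. For each gene with a match, the first one followed by A is shown in its 3′ UTR, with the match in capitals.
Lin28b, chr10:45381015-45381043, minus strand: cccgggcgggaagtCTACCTCAtgcaagc
Igf2bp1, chr11:95961771-95961799, minus strand: ctgtgcgaagtaaaCTACCTCAaggtgtg
Igf2bp2, chr16:22059466-22059494, minus strand: cacacaaataaaagCTACCTCAggtgttt
Igf2bp3, chr6:49086780-49086808, minus strand: gcatttttactcaaCTACCTCAggtattc
Hmga2, chr10:120364217-120364245, minus strand: ccgacattcaatttCTACCTCAgcatcag
Arid3a, chr10:79953896-79953924, plus strand: aggcaagtttctttCTACCTCAggtcttt
Igdcc3, chr9:65185708-65185736, plus strand: gtgactctcagcacCTACCTCAgccggaa
Igdcc4, chr9:65136322-65136350, plus strand: tcctaacaacatgaCTACCTCAtgtctgc

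Counts assigned to genes numbered 31897737 to 43394700 per sample, of which the 10 features with most counts took 51.6% to 70.2%. Values are counts per 1000000 counts of the library (CPM) after scaling by trimmed mean of M values (TMM). Dpy30 was lower in every knockout than in any control and stood at 34.2% of the control mean. Knockouts 1 to 3 had 7.93, 5.95 and 13.7 CPM, so the level left was highest in knockout 3. Dpy30 itself did not pass in edgeR (edgeR adjusted p = 0.672) or in DESeq2 (DESeq2 adjusted p = 0.131). The label of HSCs was checked against 16 marker genes, all detected in both genotypes. Kit, the stem cell factor receptor, was at 173 to 216 CPM in controls and 114 to 204 CPM in knockouts. Hlf, a transcription factor of HSCs, was at 157 to 177 CPM in controls and at 146, 230 and 27.2 CPM in knockouts 1 to 3. Of the 16 markers, 5 had a negative and 11 a positive log2 fold change. Every knockout lay above every control in 2, Gata2 and Itgb3, or 12.5%, against 6.39% of all tested genes in that direction. In either direction the groups did not overlap in 12.5% of the 16, near the 14.1% of all tested genes. Itgb3, an integrin subunit, was the 1 marker called higher by DESeq2 (log2 fold change in edgeR 1.39; DESeq2 adjusted p = 0.00582; edgeR adjusted p = 0.612). Across all genes DESeq2 called 104 of 13390 higher. The summed level of the 16 was 1081 to 1171 CPM in controls and 1407, 1611 and 820 CPM in knockouts 1 to 3, so the sum was lowest in knockout 3. Not every marker was low there, as Esam, an adhesion molecule, was at 48.1 CPM in knockout 3 and at 13.6 to 36.1 CPM in the other samples. Bulk RNA cannot tell fewer cells of a type from less RNA per cell.

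Across all genes, edgeR's quasi-likelihood test called 0 of 13646 tested genes (0%) at an adjusted p under 0.05. At an unadjusted p under 0.05 it called 888 genes, or 6.51%. Limma-voom also called 0, and DESeq2 called 138 of 13390 genes (1.03%). All 9 genes passed the filter on low counts. The groups did not overlap, in either direction, in 14.1% of tested genes, with every knockout lower in 7.74% and every knockout higher in 6.39%. Among the 8 genes other than Igdcc4, every knockout lay below every control in 2, Lin28b and Igf2bp1, and above in 1, Arid3a. The other 5 overlapped. By sign alone, 5 of these 8 had a negative log2 fold change, against 49.2% of all tested genes, with a median of -0.30 against 0.01. None of the 8 passed in edgeR, and none was called by DESeq2 without a litter term.

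**Figure D1:**
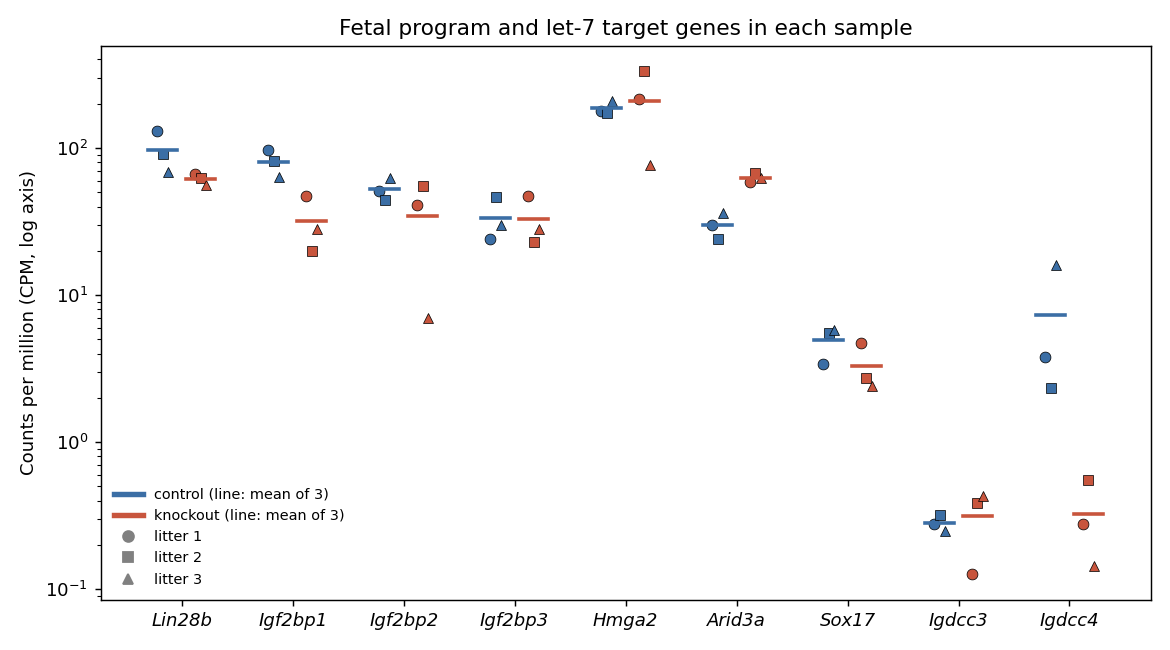
Expression of the 9 genes in each sample, in CPM on a log axis, with controls in blue and knockouts in red, the litter as the point's shape, and a line at the mean of 3. Lin28b, Igf2bp1 and Igdcc4 have every knockout below every control, Arid3a has every knockout above, and the other 5 genes overlap.

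Lin28b (ENSMUSG00000063804.8; chr10:45376620-45486395, minus strand), the regulator that holds back let-7, had a lower mean in the knockout. Controls 1 to 3 gave 3758, 3421 and 3013 counts, and knockouts 1 to 3 gave 2654, 2286 and 1968. In CPM these were 129.8, 91.5 and 68.3 in controls and 66.8, 63.0 and 56.2 in knockouts. The groups did not overlap, but control 3 lay just above knockout 1, and the controls spread more than the knockouts. The means were 96.5 ± 31.0 and 62.0 ± 5.35 CPM (SD, n = 3 each), and the log2 fold change was -0.64 with a 95% interval of -1.29 to 0.02 (edgeR adjusted p = 0.775). Within litters 1 to 3 the log2 difference was -0.96, -0.54 and -0.28. Lin28b therefore kept 64.2% of the control mean, a difference that did not pass the test. Without control 1 the log2 fold change was -0.37, and with counts scaled by library size only it was -0.38 and the groups overlapped.

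The Igf2bp proteins bind and stabilise messenger RNAs such as Igf2, and all 3 genes carry let-7 seed matches. Igf2bp1 (chr11:95957163-96005940, minus strand), with 3 matches followed by A, had the lowest log2 fold change among the 8. The controls gave 2806, 3063 and 2780 counts and the knockouts 1873, 727 and 980. In CPM these were 96.9, 81.9 and 63.1 in controls and 47.1, 20.04 and 27.99 in knockouts. Every knockout lay below every control, with knockout 2 lowest. The log2 fold change was -1.35 (SE 0.37; 95% interval -2.20 to -0.49; edgeR adjusted p = 0.642, unadjusted p = 0.00660), and knockouts held 39.3% of the control mean. Within litters the log2 difference was -1.04, -2.03 and -1.17. Igf2bp1 passed in 1 of the other fits, DESeq2 with litter as a block (DESeq2 adjusted p = 0.0270), and not in DESeq2 without the block (DESeq2 adjusted p = 0.0883). Exons of Igf2bp1 overlap those of Mir3063 on the same strand and of Gm29202 on the other strand.

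Igf2bp2 (chr16:22059009-22163299, minus strand) had 51.1, 44.3 and 63.0 CPM in controls 1 to 3 and 41.1, 55.3 and 6.97 CPM in knockouts 1 to 3. Knockouts 1 and 2 lay within or just below the control range, and the low mean of the knockouts came from knockout 3. The log2 fold change was -0.62 with a wide 95% interval of -2.08 to 0.84 (edgeR adjusted p = 0.907), and without knockout 3 it was -0.12. Igf2bp3 (chr6:49085223-49214957, minus strand) had 23.9, 46.5 and 29.7 CPM in controls and 46.9, 23.1 and 28.3 CPM in knockouts. These ranges were nearly the same, and the log2 fold change of -0.03 had a 95% interval of -0.97 to 0.91 (edgeR adjusted p = 0.994). The sign of that value turned with the scaling, to 0.18 with library size only. Exons of Igf2bp3 overlap those of Malsu1 on the other strand, and the strandedness of the counting is not given in the sources used here.

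Per kilobase of exon, the summed level of the 3 Igf2bp genes was 19.8, 20.1 and 18.7 CPM per kilobase for controls 1 to 3 and 16.2, 12.4 and 7.30 for knockouts 1 to 3. All knockout sums lay below all control sums, although the groups overlapped for Igf2bp2 and for Igf2bp3 alone. Among single tested genes every knockout was lower in 7.74%, and no share was counted for sums of other genes. Igf2bp1 was lower in all 3 knockouts, at 4.87, 2.07 and 2.89 CPM per kilobase against 6.51 to 10.01 in controls, and Igf2bp2 was below its control range in knockout 1 (5.55 against 5.98 to 8.51) and far below it in knockout 3 (0.941). As shares, which move with the other members too, Igf2bp1 made up 34.9% to 50.4% of the sum in controls and 30.1%, 16.7% and 39.6% in knockouts 1 to 3, while Igf2bp2 made up 60.4% in knockout 2 and 12.9% in knockout 3.

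Hmga2 (chr10:120361275-120476469, minus strand), with 4 seed matches, is the best known let-7 target of fetal HSCs. It had 177, 174 and 207 CPM in controls 1 to 3 and 216, 333 and 76.1 CPM in knockouts 1 to 3. Knockouts 1 and 2 lay above all controls and knockout 3 below all of them. The knockout samples thus differed 4.38-fold among themselves and the controls 1.19-fold. The log2 fold change was 0.16 with a 95% interval of -0.89 to 1.21 (edgeR adjusted p = 0.974), and it was 0.57 without knockout 3 and -0.35 without knockout 2. With litter as a block its sign was negative, at -0.06. Hmga2 shares exon sequence with the antisense gene 1700006J14Rik. Across the 6 samples Hmga2 and Igf2bp2 had the highest correlation of any pair among the 9 genes (Pearson r of log2 CPM 0.89, n = 6, given as a description). Both were lowest in knockout 3 and they share the same libraries.

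**Figure D2:**
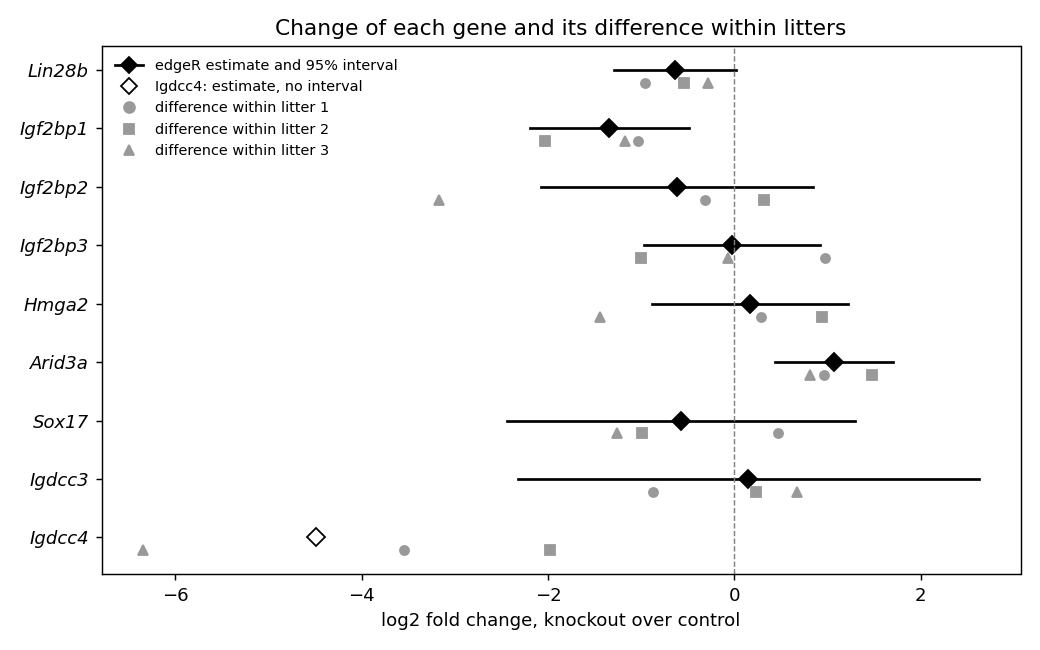
The log2 fold change of knockout over control for each gene, with the edgeR estimate and 95% interval in black and the difference within each litter in grey. The intervals of Igf2bp1 (-2.20 to -0.49) and Arid3a (0.43 to 1.70) do not reach 0, Igdcc4 is drawn without an interval, and no gene passed the adjusted threshold in edgeR.

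Arid3a (ENSMUSG00000019564.12; chr10:79927043-79955018, plus strand) differed in the other direction. It encodes a DNA-binding protein that let-7 restrains in lymphoid development, and it carries 2 seed matches. The controls gave 873, 904 and 1581 counts and the knockouts 2334, 2446 and 2199, or 30.1, 24.2 and 35.9 CPM against 58.7, 67.4 and 62.8 CPM. Every knockout lay above every control, and both groups were tight. The means were 30.1 ± 5.84 and 63.0 ± 4.35 CPM (SD, n = 3 each), a 2.10-fold difference. The log2 fold change was 1.07 (SE 0.27; 95% interval 0.43 to 1.70; edgeR adjusted p = 0.624, unadjusted p = 0.00461), and the difference within litters was 0.96, 1.48 and 0.81. DESeq2 gave an adjusted p of 0.0655. Over all 15 other settings the log2 fold change stayed between 0.93 and 1.27. Its relative Arid3b had 11.2, 7.68 and 13.5 CPM in controls and 7.90, 16.8 and 11.9 CPM in knockouts, with overlapping groups.

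Sox17 (chr1:4490931-4497354, minus strand), a transcription factor needed by fetal but not adult HSCs, was expressed at a low level. The controls gave 99, 205 and 257 counts and the knockouts 189, 99 and 84. The groups overlapped through control 1 and knockout 1. The log2 fold change was -0.58 with a 95% interval of -2.44 to 1.29 (edgeR adjusted p = 0.937). Exons of Sox17 overlap those of Gm37587 on the other strand. Sox17 is also a gene of endothelial cells, whose 12 markers were all detected. Of the 12, 10 had a negative and 2 a positive log2 fold change, with a median of -0.30, and none passed in edgeR or DESeq2. The groups overlapped in each of these markers. Their summed level was 1438, 2119 and 1367 CPM in controls and 1975, 224 and 1904 CPM in knockouts 1 to 3, with Lyve1, a receptor of the liver sinusoid lining, at 411 to 656 CPM in controls and at 28.9 CPM in knockout 2. Sox17 itself was at 4.76, 2.73 and 2.40 CPM in knockouts 1 to 3. The part of endothelial RNA in the Sox17 values was not tested. Sox7, a close relative, had 16.7, 19.3 and 10.3 CPM in controls and 6.94, 0 and 0.257 CPM in knockouts (log2 fold change -2.68; edgeR adjusted p = 0.836), and it passed in DESeq2 with litter as a block (DESeq2 adjusted p = 0.00157) but not without it (0.546).

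Igdcc4 (ENSMUSG00000032816.15; chr9:65101486-65137940, plus strand) and Igdcc3 (chr9:65141189-65185872, plus strand) are neighbouring genes for cell surface proteins of the immunoglobulin superfamily. For Igdcc4 the controls gave 110, 87 and 703 counts and the knockouts 11, 20 and 5. In CPM these were 3.80, 2.33 and 15.9 in controls and 0.277, 0.551 and 0.143 in knockouts. Control 3 was far above the other controls, and every knockout lay below every control. The control mean was 22.7-fold the knockout mean, and 9.46-fold without control 3. Igdcc3 was near the limit of detection, with 8, 12 and 11 counts in controls and 5, 14 and 15 in knockouts, where 3 counts correspond to 0.0680 to 0.104 CPM. Its groups overlapped, and its log2 fold change of 0.15 had a 95% interval of -2.32 to 2.62 (edgeR adjusted p = 0.990), too wide to say whether it changed with its neighbour. Igdcc3 turned negative with litter as a block, at -0.004.

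Markers of hepatocytes and their fetal precursors were given beside Igdcc4 because fetal liver holds these cells. Their 16 genes summed to 7.56, 20.6 and 28.7 CPM in controls 1 to 3 and 6.92, 31.3 and 8.03 CPM in knockouts 1 to 3. Of the 16, 2 were at 0 in every control and 5 in every knockout, with Dlk1 at 0 in all 6 samples. Afp, the alpha-fetoprotein gene, was at 1.52, 1.498 and 12.1 CPM in controls and 0.428, 0.331 and 1.03 CPM in knockouts. Afp was thus, like Igdcc4, highest in control 3 and lower in every knockout. The control mean of Afp was 8.47-fold the knockout mean, and 2.53-fold without control 3. Of the 7 markers tested, 4 had a negative and 3 a positive log2 fold change (Trf 2.15, Krt18 1.46 and Hnf4a 0.49), and none passed in edgeR. Afp was the 1 whose groups did not overlap, or 14.3% of the 7, near the 14.1% of all tested genes. Krt18 and Hnf4a were highest in knockout 2, at 10.6 and 17.1 CPM. Alb, the albumin gene, was at 1.14, 4.52 and 6.40 CPM in controls and 0.805, 2.95 and 3.09 CPM in knockouts, with overlapping groups. The part of hepatocyte RNA in the Igdcc4 values was not tested.

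**Figure D3:**
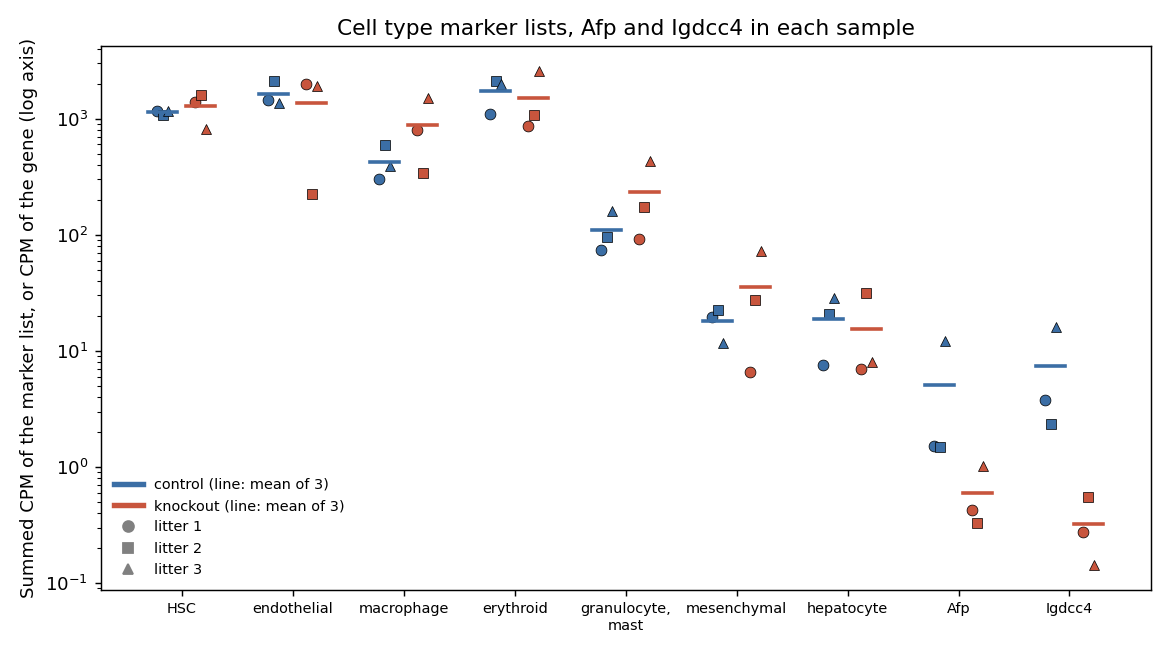
Summed CPM of each cell type marker list and CPM of Afp and Igdcc4 in each sample, on a log axis, with controls in blue, knockouts in red, the litter as the point's shape and a line at the mean of 3. Control 3 is highest in Afp (12.1 CPM) and Igdcc4 (15.9 CPM), knockout 2 is lowest in the endothelial list (224 CPM), and knockout 3 is highest in the macrophage list (1496 CPM).

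Of 11 macrophage markers tested, 9 had a positive log2 fold change, with a median of 1.76, and DESeq2 called 3 higher and edgeR none. Every knockout lay above every control in 5 of the 11, or 45.5%, against 6.39% of all tested genes in that direction. Their sum overlapped between the groups. Knockout 3, lowest in Hmga2 and Igf2bp2, had a summed level of 11 macrophage markers of 1496 CPM, against 300 to 591 CPM in controls and 805 and 339 CPM in knockouts 1 and 2. All 11 were detected in both genotypes. Its 10 granulocyte and mast cell markers summed to 432 CPM, against 73.7 to 159 CPM in controls and 91.7 and 175 CPM in knockouts 1 and 2. Of the 9 tested, 1 had a negative and 8 a positive log2 fold change, with a median of 1.42, and none passed in edgeR or DESeq2. Every knockout lay above every control in 2 of the 9, or 22.2%, against 6.39% of all tested genes in that direction. The 11 mesenchymal markers summed to 11.6 to 22.5 CPM in controls and 6.59, 27.5 and 72.2 CPM in knockouts 1 to 3, most of the last from Reln, with 3 of them at 0 in every knockout. Erythroid markers, 10 genes, summed to 1096 to 2110 CPM in controls and 864 to 2595 CPM in knockouts. All 10 were tested, with 5 negative and 5 positive log2 fold changes and a median of -0.24. DESeq2 called 1 of them lower, against 0.254% of 13390 genes, and edgeR called none. Every knockout lay below every control in 1 of the 10, or 10%, against 7.74% of all tested genes in that direction. The 10 lymphoid markers summed to at most 3.51 CPM in any sample, with 4 at 0 in every control and 5 in every knockout. The part of these cells in the values of the 9 genes was not tested.

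Levels were compared between genes per kilobase of exon. In controls Hmga2 was highest, at 27.5 ± 2.73 CPM per kilobase (SD, n = 3), and its range did not touch that of Lin28b, next at 10.6 ± 3.42. From Lin28b the level passed through Igf2bp1 (8.33 ± 1.75), Igf2bp2 (7.13 ± 1.28) and Arid3a (5.40 ± 1.05) to Igf2bp3 (4.09 ± 1.44), and each neighbouring pair in this run overlapped. Sox17 (1.03 ± 0.273) lay apart from Igf2bp3 and overlapped with Igdcc4 (0.776 ± 0.788), and Igdcc3 was lowest at 0.0783 ± 0.0100. In knockouts the middle of the order was different. Hmga2 had the highest mean, but its range of 11.2 to 49.2 CPM per kilobase overlapped that of Arid3a. Arid3a held rank 2 at 11.3 ± 0.781 CPM per kilobase, apart from Lin28b at 6.84 ± 0.591, and Igf2bp1 held rank 6 at 3.28 ± 1.44. Igdcc4 had the lowest mean, at 0.0341 ± 0.0220, but its range overlapped that of Igdcc3, next above it at 0.0869 ± 0.0455.

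**Figure D4:**
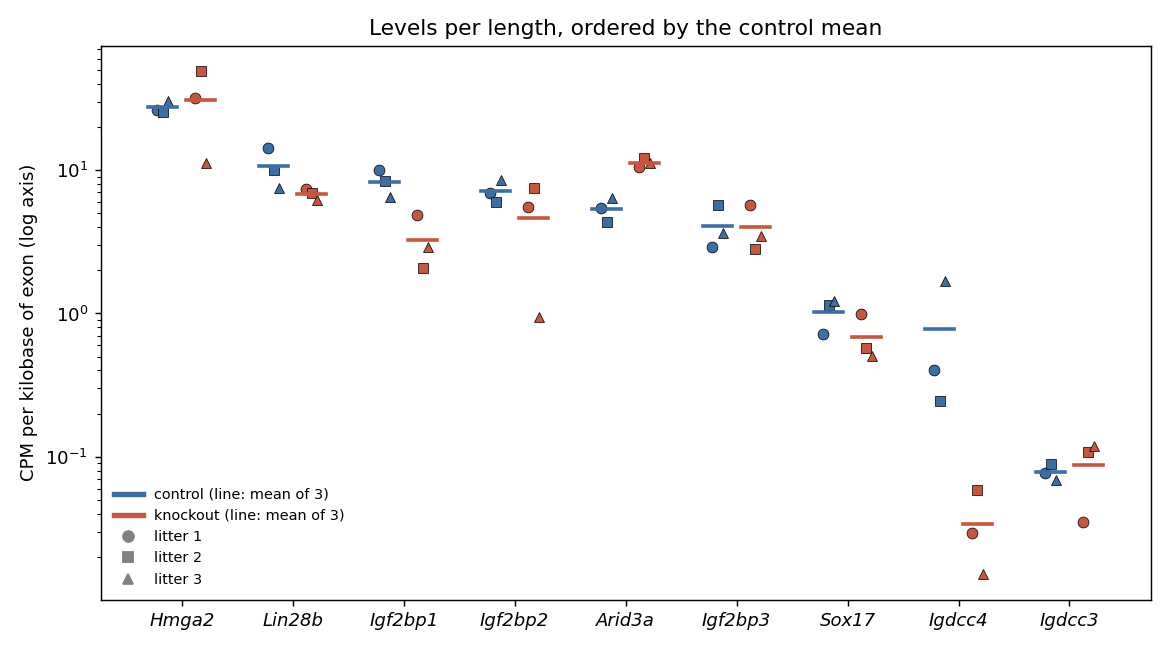
Level of each gene per kilobase of exon in each sample, as CPM per kilobase on a log axis, ordered by the control mean, with controls in blue, knockouts in red and a line at the mean of 3. Hmga2 has the highest mean in both genotypes (27.5 and 30.8), with a range in knockouts (11.2 to 49.2) that overlaps that of Arid3a, and Arid3a moves from rank 5 in controls (5.40) to rank 2 in knockouts (11.3).

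The machinery that makes and uses let-7 was read next, from a list of 30 names that includes older synonyms. Of these, 24 were in the table and 22 were tested, with 13 lower and 9 higher in the knockout and a median log2 fold change of -0.08. None passed in edgeR or DESeq2, and edgeR's unadjusted p was under 0.05 for 3. The groups did not overlap in 4 of 22, or 18.2%, near the 14.1% of all tested genes. Tnrc6b, a scaffold of the silencing complex, had 198, 226 and 255 CPM in controls and 314, 351 and 642 CPM in knockouts (log2 fold change 0.95; edgeR adjusted p = 0.697). Ran, the export factor that carries precursors from the nucleus with Xpo5, had 111, 116 and 128 CPM in controls and 76.9, 76.5 and 74.8 CPM in knockouts (log2 fold change -0.64; edgeR adjusted p = 0.707). Dicer1, which cuts the precursors, had 119 to 132 CPM in controls and 129 to 216 CPM in knockouts. Lin28a, the paralog of Lin28b, had counts in knockout 3 alone, at 2.171 CPM.

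Mature let-7 was not measured, since the libraries were made from poly(A) RNA. The precursor genes of the family gave 79, 6 and 6 counts for controls 1 to 3 and 14, 73 and 0 for knockouts 1 to 3, nearly all from Mirlet7g in control 1 and knockout 2. None was tested. Of the host genes, Wdr82 (Mirlet7g) had a log2 fold change of -0.39 and Huwe1 (Mirlet7f-2 and Mir98) one of 0.21, with edgeR adjusted p of 0.908 and 0.907. These counts give no level of mature let-7.

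Other let-7 targets were read from a list of 39 genes drawn from general knowledge. Of 36 tested, 21 were lower and 15 higher, with a median log2 fold change of -0.07, and none passed in edgeR or DESeq2. The groups did not overlap in 4 of the 36 (11.1%, against 14.1% of all tested genes in either direction). The knockouts were lower in each of the 4, and every knockout was lower in 7.74% of all tested genes. Ccnd2, a G1 cyclin, had 106, 87.6 and 109 CPM in controls and 103, 213 and 240 CPM in knockouts (log2 fold change 0.88; edgeR adjusted p = 0.729). Hmga1, a relative of Hmga2, had a log2 fold change of -0.59 (edgeR adjusted p = 0.901).

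The seed matches allow the same reading over all genes, without a list. Tested genes with no match in the 3′ UTR numbered 9969, with a median log2 fold change of 0.04 and 47.9% of them lower in the knockout. With 1 match there were 1083 genes (median 0.05, 47.5% lower), with 2 matches 129 genes (median 0.06, 45% lower), and with 3 or more 25 genes (median -0.01, 52% lower). These 25 include Lin28b, Hmga2 and Igf2bp1, and without them the median of the remaining 22 was 0.01. Groups did not overlap in 14.3%, 15.8%, 14% and 20% of these classes, and in 13.6% of the 22. The medians of the 4 classes thus lay between -0.01 and 0.06. The 424 tested genes with a match followed by A, members included, had a median of -0.02, with 50.9% lower. Their groups did not overlap in 17.2%, with every knockout lower in 48 and higher in 25. Of all 11206 tested genes with a 3′ UTR the groups did not overlap in 14.4%, with every knockout lower in 829 and higher in 788. Lin28b, Igf2bp1 and Igdcc4, the last selected on its lower counts, are among the 48, and Arid3a is among the 25. No count without the members was made for this class. Median UTR length rose from 1090 bases with no match to 4453 with 3 or more.

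**Figure D5:**
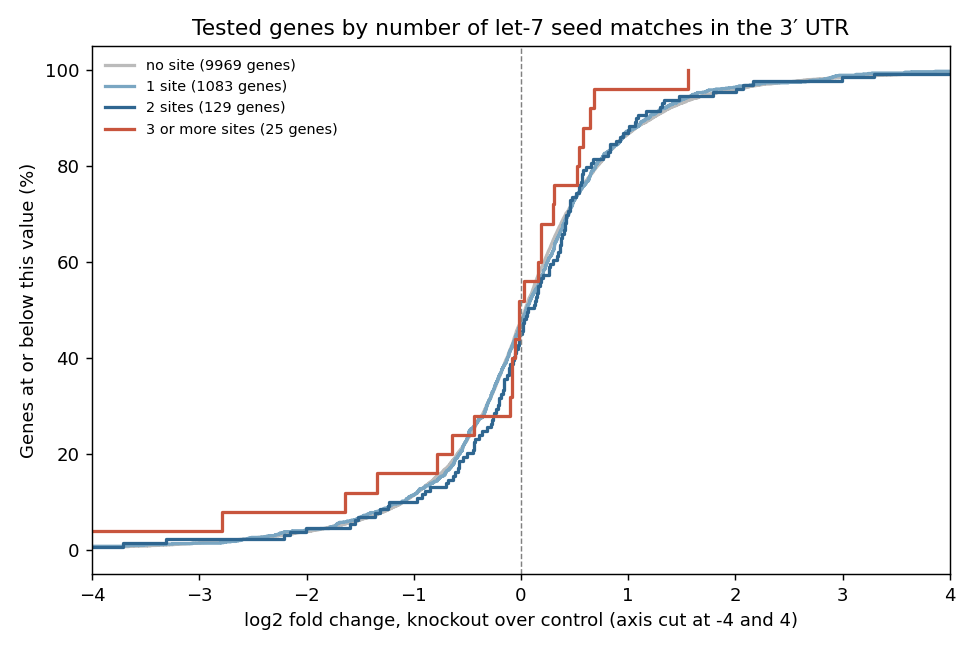
Cumulative share of tested genes, in percent, by log2 fold change of knockout over control, for genes with no, 1, 2, and 3 or more let-7 seed matches in the 3′ UTR (9969, 1083, 129 and 25 genes). The curves cross 50% close to 0, with medians of 0.04, 0.05, 0.06 and -0.01.

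Of 15 other genes of fetal blood stem cells, 12 were tested, with 7 lower and 5 higher and a median log2 fold change of -0.04, and none passed in edgeR or DESeq2. Igf2, the growth factor whose messenger RNA the Igf2bp proteins bind, had 221, 231 and 134 CPM in controls and 194, 176 and 153 CPM in knockouts, and its groups overlapped. Gata2, an HSC transcription factor, had 32.0, 30.1 and 31.0 CPM in controls and 35.9, 74.7 and 45.3 CPM in knockouts (log2 fold change 0.74; edgeR adjusted p = 0.775). Cdkn1c, a cell cycle inhibitor of quiescent HSCs, had 9.39 to 17.9 CPM in controls and 13.5 to 39.8 CPM in knockouts (log2 fold change 0.88; edgeR adjusted p = 0.824). Of 6 transcription factors that act with or beside Sox17, 4 were lower and 2 higher, none passing in edgeR, and Fli1 had a log2 fold change of 0.51 (edgeR adjusted p = 0.799).

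Genes outside the set with the most similar pattern over the 6 samples were listed as a description. For Igdcc4 these were Topors, Frat2, Cenpv, Bub1b and Hmgb2, with Pearson r of log2 CPM from 0.98 to 0.99. For Lin28b they included Rps13, Sap18, Pomt1 and Phf20l1, with r from 0.97 to 0.99. These are the highest values among 13646 tested genes over only 6 samples, and the genes share the same 6 libraries. Lin28b and Igdcc4 themselves had an r of 0.51, Lin28b and Igf2bp1 one of 0.81, and Igf2bp1 and Arid3a one of -0.91.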

How the data were processed

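Each of the 6 samples has a list, deposited by the authors, of raw counts by gene symbol, in whole numbers. The submitters' processing notes name CASAVA 1.8.4, TopHat2, Picard 1.126, HTSeq 0.6.0, DESeq 3.0, bedtools 2.17.0 and the build mm10. The annotation and strandedness are not given in the sources used here. The 5 closing tallies of reads given to no gene, 41.0% to 51.0% of reads, were left out. Reads carried no molecular tags, so intervals cover counting error and sample spread, not PCR copies.

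Samples were grouped by genotype. Genes were filtered with filterByExpr, scaled by TMM and tested with edgeR 4.0.16 (quasi-likelihood, two-sided, R 4.3.3), with genotype as the only term and Benjamini-Hochberg adjustment over 13646 genes at a threshold of 0.05. The SE of a log2 fold change was taken from its F statistic, and 95% intervals use the matching t distribution. Log2 CPM uses a prior count of 2. In simulated counts with the spread of these samples, edgeR called very few of the genes made to differ, so an edgeR p that misses the threshold does not show that a gene is the same in both genotypes. DESeq2 1.42.0, limma 3.58.1 (voom), other scalings and filters, a litter block and the removal of each sample were alternatives.

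The litter pairs the samples per the labels. Deviations from the genotype means correlated at -0.02, -0.08 and 0.003 within litters 1 to 3. By the labels no samples share both genotype and litter, so different samples came from different embryos. The number of embryos in a sample is not given, so p-values measure the spread between these samples.

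The 9 genes and all lists were chosen with earlier results of these data known. All 9 genes are named, with the 2 smallest p of each list and the 5 genes most correlated with Igdcc4 and with Lin28b, leaving out predicted genes and RIKEN clones. A few genes that this rule names are not reported here. Other genes named, among them Igf2, Dicer1, Lin28a, Kit, Hlf, Itgb3, Esam, Lyve1, Afp, Alb, Trf, Krt18, Hnf4a and Reln, were chosen after their values were seen. For 11206 of 13646 tested genes the symbol matched a 3′ UTR in GENCODE M21, whose build is that of mm10. UTRs are the longest among basic coding transcripts, and the isoforms in these cells were not measured.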

Additional observations from a re-analysis of the deposited data

How the results depend on the processing

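All of these settings were planned, with earlier results of these data known. The count of genes past the threshold was 0 in edgeR, and it was 1 without a filter on low counts, 1 with at least 10 counts in every sample, 138 in DESeq2 and 277 in DESeq2 with litter as a replicate block. It was 0 in limma-voom, in the edgeR replicate block (619 at an unadjusted p under 0.05), and in the other scalings. Each fit without 1 sample gave 0, where 593 to 1796 genes had an unadjusted p under 0.05. Lin28b, Igf2bp1, Igf2bp2, Arid3a and Sox17 kept their direction in all settings. Igdcc4, selected on its lower counts in these samples, was also lower in all settings that gave a value, which is only a description. Igf2bp3 turned to 0.18 with library size only, and without 1 sample it ranged from -0.38 to 0.30, turning positive without control 2, knockout 2 or knockout 3. Hmga2 turned to -0.0550 with the edgeR block, -0.0385 in DESeq2 with the block and -0.0694 in limma-voom, and without 1 sample it ranged from -0.35 (knockout 2) to 0.57 (knockout 3). Igdcc3 turned to -0.00377 with the block and -0.0346 in limma-voom, and without 1 sample it ranged from -0.13 to 0.52, turning negative without knockout 2 or 3. The cause was not tested. The block changed no edgeR call, as 0 genes passed the threshold with and without it. With library size only, the median of all genes was 0.23, upper-quartile scaling put it at -0.10, and the genes whose groups did not overlap went from 4 to 3 as Lin28b dropped out. At least 10 counts in every sample removed Igdcc3 and Igdcc4. Depth limits Igdcc3, at 5 to 15 counts.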
